A study of Homo sapiens with 9 samples.

Results

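The 6 OVCAR4 libraries that carry a hairpin against MPZL3 were compared with each other by hairpin, the 3 shMPZL3 #2 libraries against the 3 shMPZL3 #1 libraries, to describe which functions and gene families differ between these reagents. The members were taken by their labels, 6 of the 9 libraries of the series, and no measured value was used to choose them. OVCAR4 is an established cell line of human high-grade serous ovarian carcinoma. The cells were transduced with lentivirus that carries one short hairpin RNA, shMPZL3 #1 or shMPZL3 #2, and the remaining 3 libraries came from cells with the scr control, a scramble hairpin in the pLKO.1 vector. All groups share the vector type, the transduction and 3 days of puromycin, which kills cells that did not take up the vector. The control libraries are not part of the contrast, and their levels are given below to place the hairpins. They do enter the fit through the filter, the scaling and the estimate of the spread, and so bear on which genes are called. Counts of called genes from the 6 hairpin libraries alone are given at the end. Each hairpin is 1 reagent, so a difference between the groups belongs to the pair of reagents, and a hairpin's own sequence, its delivery and its depth of knockdown cannot be told apart in this design. In bulk RNA, fewer cells of a type and less RNA per cell cannot be told apart either.

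A short hairpin RNA is transcribed in the nucleus, exported, cut by Dicer and loaded on an Argonaute protein, which then cuts messages that pair with the guide strand. Messages with only partial pairing to the guide can be lowered as well, so hairpins against the same gene are commonly compared with each other. MPZL3 is a single-pass membrane protein with an immunoglobulin-type domain and a predicted role in cell adhesion.

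MPZL3 (ENSG00000160588, chromosome 11 from 118226690 to 118252350 on GRCh38) was lowered further by shMPZL3 #1. Its normalized counts, scaled to a common library size, were 119, 143 and 123 with shMPZL3 #1, 284, 380 and 271 with shMPZL3 #2, and 536, 611 and 587 with scr control. The hairpin groups did not overlap, and both lay below every control library. The log2 difference, shMPZL3 #2 minus shMPZL3 #1, was 1.28 with a standard error of 0.16 (edgeR's quasi-likelihood test, adjusted p = 5.72e-05). Groups of 3 that do not overlap give an exact two-sided permutation p of 0.1 for a single gene, the smallest this design allows, so calls rest on the fit across all genes.

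Total counts were 20146466 to 22804445 with shMPZL3 #1 and 20307969 to 27835841 with shMPZL3 #2. Reads of mitochondrially encoded genes took 7.75% to 8.65% of the counts with shMPZL3 #1 and 7.39% to 7.80% with shMPZL3 #2. The first principal component of the 6 libraries held 40.2% of the variance and separated the hairpins. The ovarian lineage markers PAX8, EPCAM, KRT7 and WFDC2 were expressed in all 6 libraries, and summed CPM (counts scaled to a fixed library total) of the 21 lineage markers was 8063 to 9389 with shMPZL3 #1 and 7601 to 9152 with shMPZL3 #2. Markers of leukocytes and stroma were low, at 8.90 to 12 against 8.09 to 12.4 CPM for 15 leukocyte markers and 139 to 165 against 151 to 214 CPM for 15 fibroblast and mesothelial markers, of which PDGFRA, DCN and POSTN had at most 3 counts in any of the 6 libraries. Of the 6 fibroblast and mesothelial markers tested, COL1A1, COL1A2 and LRRN4 were lower with shMPZL3 #2 (log2 differences of -0.75, -1.24 and -1.22), UPK3B was higher (0.60, not called without shMPZL3 #1 replicate 2, shMPZL3 #1 replicate 3 or shMPZL3 #2 replicate 1), and the median was -0.77. The sum of 11 endothelial markers was 17.6 to 19.1 CPM with shMPZL3 #1 and 27.3 to 28.6 with shMPZL3 #2, with CDH5 and ERG called higher (log2 differences of 1.39 and 0.75) and KDR, FLT1 and EMCN at 3 counts or fewer in each library, and the sum of 11 markers of the packaging cells used to make virus was 55.2 to 61.1 and 57.6 to 69.0 CPM.

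The hairpins differed at many genes, and in both directions to a similar extent. Of 16928 genes tested, 1279 were higher with shMPZL3 #2 and 1280 were lower, 7.56% in each direction and 15.1% in all, at an adjusted p-value under 0.05. At least a 2-fold difference was reached by 221 of the higher genes and 318 of the lower genes, 1.31% and 1.88% of the genes tested. The median log2 difference of all genes was 0.01. Without regard to the test, the 3 libraries of shMPZL3 #2 lay above all 3 of shMPZL3 #1 for 15.4% of genes and below them for 14.6%. Against scr control, which both hairpins share, shMPZL3 #1 changed more genes, 2838 higher (16.8%) and 2585 lower (15.3%), than shMPZL3 #2, with 1585 higher (9.36%) and 982 lower (5.8%).

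The mean of scr control lay between the hairpin means for 580 of the 1279 genes that were higher with shMPZL3 #2, above both means for 521 and below both for 178. Of the 1280 lower genes, it lay between them for 668, below both for 508 and above both for 104. Among the higher genes 863 were called for shMPZL3 #1 against scr control and 364 for shMPZL3 #2, and among the lower genes 862 and 318 were called. In the plot of all genes, the most extreme differences belong to genes of low abundance, and among more abundant genes CCL20, CXCL5 and NPPB stand out above and C1QL4, ACTA2 and CXCL12 below.

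**Figure D1:**
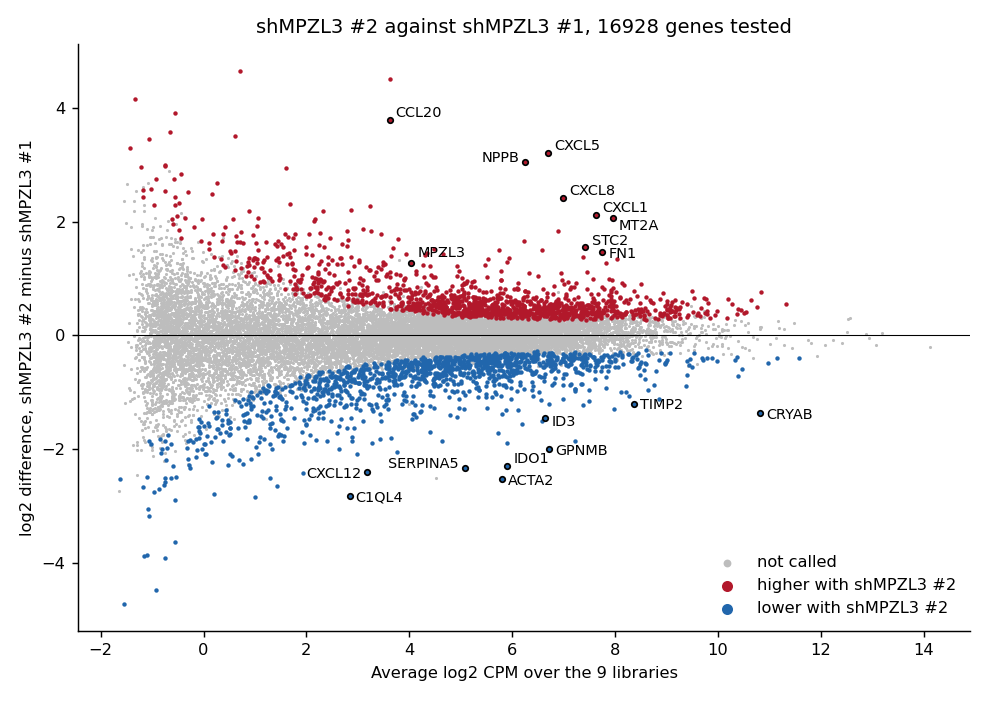
Each point is 1 of the 16928 genes tested, with its average log2 CPM over the 9 libraries on the x axis and its log2 difference, shMPZL3 #2 minus shMPZL3 #1, on the y axis. Red points are the 1279 genes called higher with shMPZL3 #2, blue points the 1280 called lower and grey points the genes not called, and open circles mark genes named beside them.

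Of 13651 protein-coding genes tested, 8.86% were higher and 8.64% lower with shMPZL3 #2. Among those called without overlap between the hairpins and at a mean log2 CPM of 1 or more, the 15 largest positive differences held 6 chemokines, CCL20, CXCL5, CXCL8, CXCL3, CXCL1 and CXCL6. The others were BOLA2B, NPPB, GREM1, LPL, DPYSL3, SLAMF7, MT2A, INHBE and COL25A1. NPPB, the gene of B-type natriuretic peptide, had 276, 462 and 645 normalized counts with shMPZL3 #1 and 2891, 3766 and 4714 with shMPZL3 #2, a log2 difference of 3.04 with a standard error of 0.28 (adjusted p = 4.66e-06). Its control libraries, at 258, 443 and 621, overlapped those of shMPZL3 #1. GREM1, a secreted antagonist of BMP ligands, had 12.8, 4.97 and 25.5 normalized counts with shMPZL3 #1 and 53.7, 151 and 133 with shMPZL3 #2. DPYSL3, a cytoskeletal regulator of growth cones, rose from 71.7 ± 26.3 under shMPZL3 #1 to 330 ± 80.8 under shMPZL3 #2 (SD, n = 3 each). SLAMF7, a surface receptor of lymphocytes, had 30.2, 63.6 and 57.7 normalized counts with shMPZL3 #1, 179, 244 and 263 with shMPZL3 #2, and at most 15.1 in a control library. Lack of overlap between the hairpins was a condition for choosing these genes and is not a result about them. The largest of these 15 differences, that of BOLA2B, rested on 1 library. BOLA2B had 26.5, 28.8 and 32.2 normalized counts with shMPZL3 #1 and 49.6, 33.5 and 1886 with shMPZL3 #2. The log2 difference of BOLA2B was 4.50 with all libraries and 0.50 without shMPZL3 #2 replicate 3 (adjusted p = 0.432), and the gene has a near-identical copy, so its counts are uncertain.

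At the other end, the 15 largest negative differences were those of CHI3L2, C1QL4, TMEM37, ACTA2, HTR3A, HHAT, CXCL12, SERPINA5, IDO1, BBOX1, KRT5, SEMA5B, FAM83F, CACNA1H and GPNMB. C1QL4, a secreted protein with a C1q domain, had 252, 249 and 403 normalized counts with shMPZL3 #1, 37.5, 23.3 and 64.6 with shMPZL3 #2 and 63.8, 103 and 96.2 with scr control, a log2 difference of -2.81 with a standard error of 0.30 (adjusted p = 1.72e-05). IDO1, which starts the breakdown of tryptophan to kynurenine, had 1786, 3060 and 3701 normalized counts with shMPZL3 #1 and 452, 766 and 528 with shMPZL3 #2, against 142, 282 and 291 with scr control. SERPINA5, a serine protease inhibitor, stood at 1198 ± 275 with shMPZL3 #1 and 239 ± 27.1 with shMPZL3 #2, on either side of the 640 ± 149 of scr control (SD, n = 3 each). GPNMB, a membrane glycoprotein of pigment cells and macrophages, showed the same order at a higher level, with 4063 ± 764, 1021 ± 166 and 1403 ± 159 normalized counts for shMPZL3 #1, shMPZL3 #2 and scr control. HHAT, which palmitoylates Hedgehog proteins, and BBOX1, the last enzyme of carnitine synthesis, had log2 differences of -2.42 and -2.08. These 15 genes were likewise chosen among those without overlap between the hairpins. Most genes named in the lists below are called members, so lack of overlap at them is a description only. CHI3L2 had at most 168 normalized counts and shares its position with DENND2D, and since the libraries carry no strand, reads where genes overlap cannot be assigned to 1 of them with certainty.

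Chemokines had the largest median difference between the hairpins of the 65 gene lists counted, and most of their called members were higher with shMPZL3 #2. These small secreted proteins draw leukocytes through G protein-coupled receptors, and the CXC members with an ELR motif (CXCL1, CXCL2, CXCL3, CXCL5, CXCL6 and CXCL8) act on neutrophils. Of 16 chemokine genes tested, 8 were higher with shMPZL3 #2 and 2 were lower, 50% and 12.5% against 7.56% of all genes in each direction, and their median log2 difference was 1.45. All 6 ELR chemokines were higher. CXCL8 had 1008, 1192 and 1091 normalized counts with shMPZL3 #1 and 4549, 7836 and 5175 with shMPZL3 #2, a log2 difference of 2.42 with a standard error of 0.27 (adjusted p = 2.39e-05). CXCL1 had 2257, 2011 and 1944 against 8381, 10626 and 7980. CXCL5 had 540, 640 and 542 against 4273, 7406 and 4144. The lowest shMPZL3 #2 library was thus above the highest shMPZL3 #1 library in each case, and at CXCL8 and CXCL5 the shMPZL3 #1 libraries lay within or close to the range of the controls, 424 to 1167 and 221 to 640. Over the whole list, however, 10 of the 16 were called higher than scr control with shMPZL3 #1 and 13 with shMPZL3 #2. The shares over all genes were 16.8% and 9.36%. The medians against scr control were 0.92 and 2.18, and none was called lower.

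The promoters of the 6 ELR chemokines are shown because they hold one sequence in common. RefSeq promoter sequences on GRCh38.p14, from 250 bases before to 50 bases after the gene start, were matched by symbol to 10731 of the protein-coding genes tested. Each window was searched on both strands for GGANTTTCC, a form of the site bound by NF-kB, the transcription factor family that relays signals of IL-1 and TNF. Below, 79 bases of each promoter are given 5′ to 3′ on the gene's strand, and capitals mark the match, which starts 77 to 91 bases before the gene start.
CXCL5, chr4:73998724-73998802, minus strand: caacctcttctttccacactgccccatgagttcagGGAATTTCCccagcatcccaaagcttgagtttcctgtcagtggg
CXCL6, chr4:73836554-73836632, plus strand: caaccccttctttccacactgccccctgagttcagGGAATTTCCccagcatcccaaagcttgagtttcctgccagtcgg
CXCL8, chr4:73740443-73740521, plus strand: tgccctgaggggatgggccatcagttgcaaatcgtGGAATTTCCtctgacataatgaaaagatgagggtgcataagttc
CXCL1, chr4:73869280-73869358, plus strand: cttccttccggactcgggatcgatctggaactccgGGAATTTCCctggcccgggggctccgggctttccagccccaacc
CXCL2, chr4:74099229-74099307, minus strand: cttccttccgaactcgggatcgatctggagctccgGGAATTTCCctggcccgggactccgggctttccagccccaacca
CXCL3, chr4:74038724-74038802, minus strand: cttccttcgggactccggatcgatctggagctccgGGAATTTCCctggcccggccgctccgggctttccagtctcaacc
The 9 letters were the same in all 6. The stretches of CXCL5 and CXCL6 were identical at 75 of 79 positions and those of CXCL1 and CXCL3 at 72, so these promoters are copies and not independent matches, while CXCL8 matched CXCL1 at 29. A match was present in 1.69% of the 10731 promoters, in 3.78% of those of genes higher with shMPZL3 #2 and in 1.41% of those of lower genes. Among the 12 chemokine promoters found, 7 held one, the remaining one being that of CXCL10, and those of CCL20 and CXCL12 held none within the window.

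The members of the chemokine list that lack an ELR motif were mixed. CCL20, a ligand of CCR6 made by epithelium, had 39.4, 58.6 and 35.9 normalized counts with shMPZL3 #1, 481, 855 and 510 with shMPZL3 #2 and 29.3, 108 and 109 with scr control, a log2 difference of 3.78 with a standard error of 0.34 (adjusted p = 4.12e-06). CCL2, which draws monocytes, rose from 1234 ± 156 normalized counts under shMPZL3 #1 to 3499 ± 506 under shMPZL3 #2 (SD, n = 3 each). CXCL10, whose gene is induced by interferon, had 51.3, 89.4 and 65.3 against 63.8, 118 and 73.7 normalized counts, and the hairpins overlapped (adjusted p = 0.604). CXCL12, the ligand of CXCR4, went the other way, with 319, 375 and 438 normalized counts for shMPZL3 #1 and 77.9, 92.3 and 45.8 for shMPZL3 #2, a log2 difference of -2.40 with a standard error of 0.22 (adjusted p = 4.12e-06), and only shMPZL3 #1 was called against the 93.4 to 112 of scr control. The call of CCL28, at a log2 difference of -0.45, was lost without any 1 of 4 libraries. CXCL1, CXCL2 and CXCL3 are close copies, and their counts may be split among them.

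Cytokines and NF-kB genes outside the chemokines differed less. Of 21 genes of the IL-1 and IL-6 families 5 were higher with shMPZL3 #2 (23.8%) and 2 were lower (9.52%), against 7.56% of all genes in each direction, or 3 higher without shMPZL3 #2 replicate 3. LIF, an IL-6 family cytokine, had 831, 886 and 1034 normalized counts with shMPZL3 #1 and 1790, 1837 and 1811 with shMPZL3 #2. IL6 itself had 89.7, 148 and 110 against 215, 261 and 272, a log2 difference of 1.11 (adjusted p = 0.00207), and the IL-6 family receptor OSMR had a log2 difference of 0.66. These 3 genes lay apart between the hairpins without overlap, and IL6 shares its position with STEAP1B, with a sum of 203 counts in the 6 libraries beside 1194 of IL6. IL33, an alarmin of epithelium, was lower at 68.8, 43.6 and 30.1 normalized counts with shMPZL3 #2 against 138, 205 and 161 with shMPZL3 #1, and IL15 had a log2 difference of -0.91. IL1A and IL1B, the ligands at the top of the IL-1 pathway, overlapped between the hairpins, with adjusted p-values of 0.598 and 0.667. Of 30 NF-kB subunits and feedback targets 4 were higher, 13.3% of the list, or 2 without shMPZL3 #2 replicate 3. They included TNFAIP3, the A20 inhibitor of the pathway, with 1831 ± 187 normalized counts for shMPZL3 #1 and 3074 ± 117 for shMPZL3 #2, and ICAM1, a leukocyte adhesion receptor, with a log2 difference of 0.54. The subunit NFKB1 and the inhibitor NFKBIA had log2 differences of 0.31 and 0.25 and were not called (adjusted p = 0.0531 and 0.075). PLAU, the urokinase protease, was lower, with 2846, 3971 and 4599 normalized counts for shMPZL3 #1, 1304, 1317 and 1409 for shMPZL3 #2 and at most 752 for scr control.

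Interferon-stimulated genes were above scr control with both hairpins, and some of them were higher again with shMPZL3 #2. These genes encode antiviral proteins and are switched on by type I and type III interferon. Of 46 tested, 12 were higher with shMPZL3 #2 (26.1%) and 1 was lower (2.17%), against 7.56% of all genes in each direction. The median log2 difference was 0.42. Against scr control 43 of the 46 were higher with shMPZL3 #1 and 43 with shMPZL3 #2, with medians of 1.56 and 2.05. Of all genes, 16.8% and 9.36% were higher than scr control with shMPZL3 #1 and shMPZL3 #2. OASL, an oligoadenylate synthetase-like protein, had 35.3 ± 6.23 normalized counts with shMPZL3 #1 and 122 ± 20.3 with shMPZL3 #2, n = 3 each. IFITM1, a membrane protein that blocks viral entry, had 223, 222 and 537 against 853, 895 and 1066, and 77.1 to 104 with scr control. OAS3, which makes the oligoadenylates that activate RNase L, had 626, 780 and 1636 against 2224, 2418 and 2789, a log2 difference of 1.29 with a standard error of 0.28 (adjusted p = 0.00559). The hairpins did not overlap at these 3 genes, but shMPZL3 #1 replicate 3 was the highest of its group at IFITM1 and OAS3. At IFI6 that library had 5418 normalized counts against 960 and 1589 in the other shMPZL3 #1 libraries and 3891 to 4914 with shMPZL3 #2, so the hairpins overlapped there (adjusted p = 0.216). The number of members called was 23 without shMPZL3 #1 replicate 3, 7 without shMPZL3 #1 replicate 1 and 6 without shMPZL3 #2 replicate 3. IFITM1 overlaps IFITM2, with a sum of 3718 counts in the 6 libraries beside 4178 of IFITM1. IRF7, a regulator of the interferon response, had 241, 211 and 470 normalized counts with shMPZL3 #1 and 642, 582 and 952 with shMPZL3 #2. None of 20 genes of HLA class I antigen presentation was called between the hairpins, with a median log2 difference of 0.03, while 15 of them were higher than in scr control with each hairpin. GAAANNGAA, a core of the interferon-stimulated response element, was found in 25 of 38 promoters of the list and in 6.32% of all promoters, 7.77% of those of higher genes and 5.22% of those of lower genes. The count of 25 covers members whether or not they were called, so it does not bear on the difference between the hairpins.

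Targets of ATF4 and genes of amino acid supply were the list with the largest share called. ATF4 is the transcription factor of the integrated stress response, translated when eIF2 is phosphorylated, and it drives genes of amino acid import, serine and one-carbon synthesis and tRNA charging. Of 40 tested, 29 were higher with shMPZL3 #2 (72.5%, against 7.56% of all genes), none was lower, and the median log2 difference was 0.63. Leaving out any 1 library left 24 to 29 called. ATF4 itself had 3423, 2606 and 3085 normalized counts with shMPZL3 #1, 5415, 4918 and 6077 with shMPZL3 #2 and 5230, 4502 and 4482 with scr control. Its log2 difference between the hairpins was 0.85 with a standard error of 0.12 (adjusted p = 0.000146), and shMPZL3 #2 lay near the control. The list as a whole stood at a median of -0.11 against scr control with shMPZL3 #1 and 0.45 with shMPZL3 #2.

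Several members had a mean above scr control with shMPZL3 #2 and near or below it with shMPZL3 #1. STC2, a secreted glycoprotein, had 1963, 1748 and 2025 normalized counts with shMPZL3 #1, 4741, 5614 and 6399 with shMPZL3 #2 and 2882 to 3199 with scr control, a log2 difference of 1.55 with a standard error of 0.11 (adjusted p = 5.43e-07). TRIB3, a pseudokinase that feeds back on the pathway, had 626, 559 and 691 against 1382, 1442 and 1915, with 604 to 697 in scr control. PHGDH, the first enzyme of serine synthesis, had 3024, 2415 and 2462 against 6503, 5509 and 7069, with 4480 to 5954 in scr control, which shMPZL3 #2 overlapped. In all 3 the hairpins were fully apart. The mitochondrial gluconeogenic enzyme PCK2, the cystine importer SLC7A11 and the folate enzyme MTHFD2 had log2 differences of 1.41, 1.33 and 1.09. CHAC1, which degrades glutathione, was higher at 0.89. DDIT3, the pro-apoptotic factor CHOP, had 314 ± 37.8 and 317 ± 24.0 normalized counts for shMPZL3 #1 and shMPZL3 #2, and PSAT1, the second enzyme of serine synthesis, 2979 ± 379 and 3384 ± 253 (SD, n = 3 each), and neither was called. ER chaperones and other unfolded protein response genes, with 4 of 32 higher and 1 lower, lay near the background of 7.56%. TGATGNAA, a form of the ATF4 site, was searched for after the data were seen and was found in 5 of 26 promoters of the ATF4 list, in 2.16% of those of genes higher with shMPZL3 #2, in 1.74% of those of lower genes and in 1.71% of all promoters. The count of 5 covers the list whether members were called or not and does not bear on the difference between the hairpins.

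**Figure D2:**
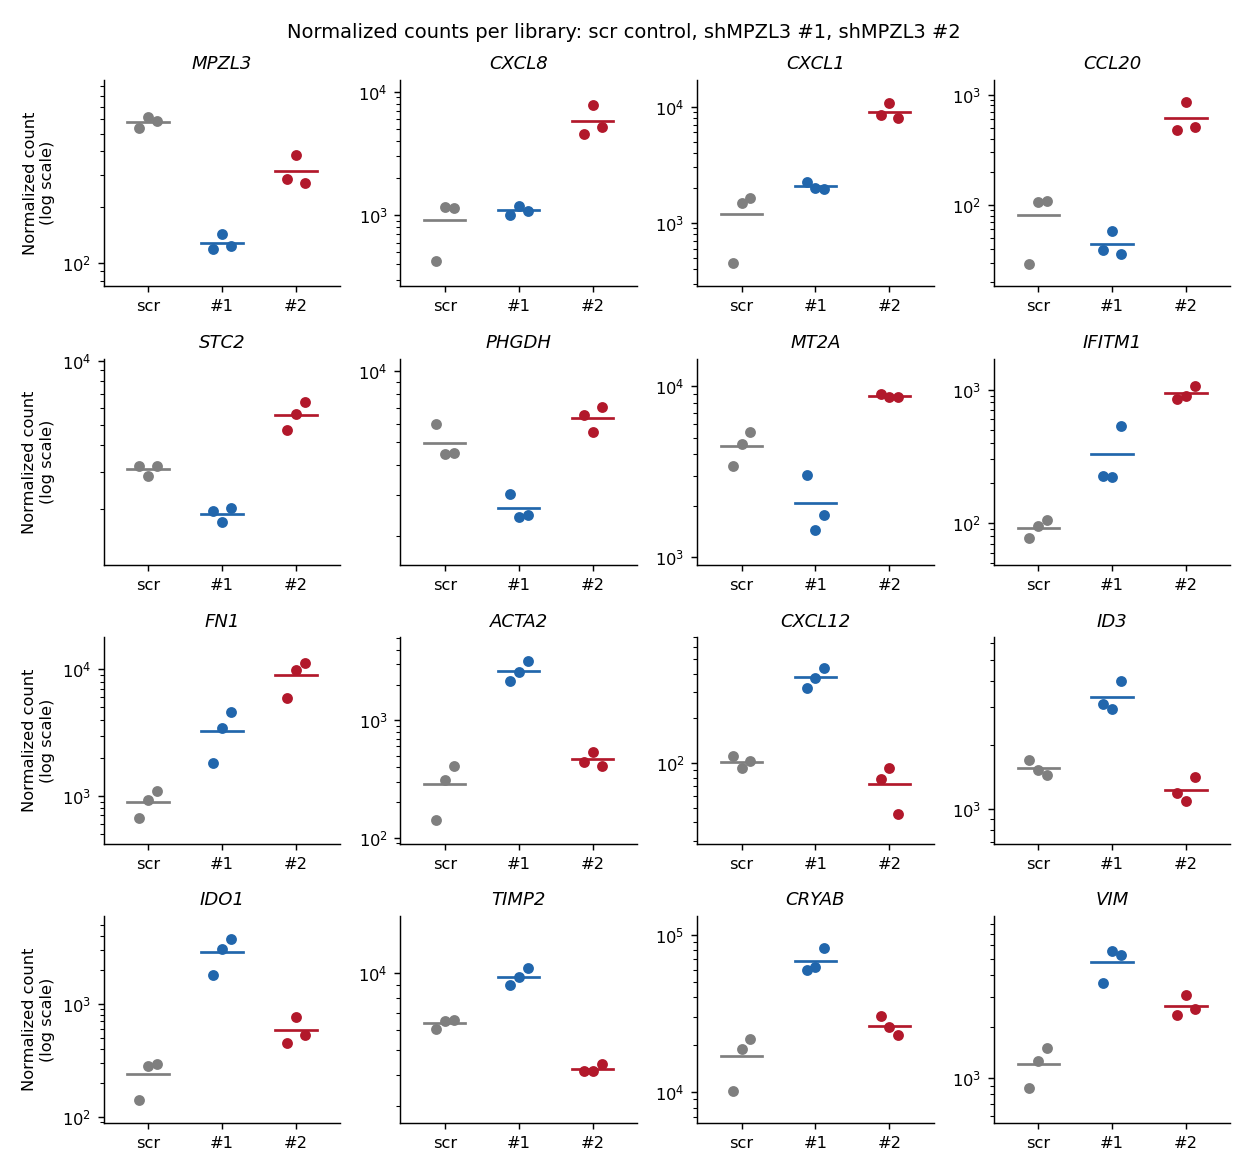
Normalized counts on a log axis for 16 genes, with 1 point per library and a line at the mean of each group of 3, for scr control (grey), shMPZL3 #1 (blue) and shMPZL3 #2 (red). The shMPZL3 #2 libraries lie above those of shMPZL3 #1 from MPZL3 to FN1 and below them from ACTA2 to VIM, with no overlap at any of the 16 genes. All 16 were picked among called genes, so this lack of overlap is not a result about them. Over all genes tested, the shMPZL3 #2 libraries lay above without overlap for 15.4% and below for 14.6%.

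Among genes of protein synthesis, most of those called were higher with shMPZL3 #2. The aminoacyl-tRNA synthetases, which load tRNAs with amino acids, had 14 of 37 members higher (37.8%, against 7.56% of all genes) and none lower. Their median log2 difference was 0.34. EPRS led them, with 2091, 2059 and 1653 normalized counts for shMPZL3 #1, 3328, 3922 and 3766 for shMPZL3 #2 and 3528 to 4029 for scr control. WARS and GARS followed at log2 differences of 0.85 and 0.77, and both overlap another gene with fewer counts, WDR25 and GARS-DT. Of 81 cytosolic ribosomal protein genes 45 were higher (55.6%) and none was lower, with a median of 0.38, and against scr control their median was -0.53 with shMPZL3 #1 and -0.16 with shMPZL3 #2. RPS3, a protein of the small subunit, had 10008, 7349 and 7984 normalized counts with shMPZL3 #1 and 13546, 11773 and 13495 with shMPZL3 #2. RPLP0, of the ribosomal stalk, overlapped between the hairpins at 13927 to 18258 and 14264 to 16474. EIF4EBP1, the repressor of cap-dependent initiation, had a log2 difference of 0.78. Of 66 initiation and elongation factor genes 16 were higher (24.2%) and 2 were lower (3.03%).

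The count of ribosomal protein genes depended on single libraries. It was 15 without shMPZL3 #2 replicate 1 or shMPZL3 #2 replicate 3, 16 without shMPZL3 #1 replicate 3 and 22 without shMPZL3 #1 replicate 2, and no member was lower in any of these fits. The tRNA synthetase count was 7, 7, 8 and 9 without the same 4 libraries and 22 without shMPZL3 #1 replicate 1. The initiation and elongation factor count was 6, 6, 9 and 6 without the same 4 libraries. Ribosomal protein genes are short, with a median annotated length of 3109 bases against 5071 for all protein-coding genes tested, and the median difference varied with gene length. When protein-coding genes with a mean log2 CPM of 1 or more were split by length into 5 equal groups, the median log2 difference ran from 0.10 in the shortest to -0.05 in the longest. Single libraries differed in this trend. Relative to each gene's mean over the 9 libraries, the median level of the shortest and of the longest group was 0.02 and -0.02, -0.11 and 0.09, and -0.04 and 0.01 in the 3 shMPZL3 #1 libraries, and 0.08 and -0.06, 0.02 and 0.02, and 0.07 and -0.05 in those of shMPZL3 #2. The widest spread was that of shMPZL3 #1 replicate 2, and shMPZL3 #2 replicate 2 had almost none. With each library corrected for length, 39 of the 81 ribosomal protein genes were higher. The proteins of the mitochondrial ribosome, with 10 of 78 higher and a median of 0.20, and the nuclear subunits of oxidative phosphorylation, with 7 of 75 and 0.09, lay nearer the background. Leaving out 1 library moved the 10 to between 3 and 18 and the 7 to between 1 and 12. The mitochondrially encoded MT-ND6 was lower, with 24769, 25577 and 26103 normalized counts for shMPZL3 #1 and 20175, 19075 and 16990 for shMPZL3 #2, 1 of 3 lower among 13 such genes.

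The called hypoxia and glycolysis genes were all higher with shMPZL3 #2, 15 of 36 (41.7%, against 7.56% of all genes), with a median of 0.29. Without shMPZL3 #2 replicate 3, 9 were higher. ENO2, a glycolytic enolase, had 571, 558 and 602 normalized counts with shMPZL3 #1, 1086, 1436 and 1538 with shMPZL3 #2 and 671 to 945 with scr control. PFKP, a phosphofructokinase, had 3876, 3242 and 3390 against 6085, 6028 and 6713. VEGFA, the angiogenic growth factor, had 2094, 1913 and 1963 against 3162, 3296 and 3460. The hairpins did not overlap at these genes, and at PFKP and VEGFA the control libraries, at 5112 to 6020 and 2700 to 3137, lay between them. GAPDH, often used as a reference gene, had 41421 ± 3808 normalized counts with shMPZL3 #1 and 60805 ± 3284 under shMPZL3 #2 (SD, n = 3 each), a log2 difference of 0.55 with a standard error of 0.10 (adjusted p = 0.000995). ENO2 overlaps LRRC23.

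By their medians, genes of DNA replication and cell division were closer to scr control with shMPZL3 #2 than with shMPZL3 #1. Of 44 replication genes, which encode the helicase, clamp, polymerases and nucleotide enzymes of S phase, 26 were higher with shMPZL3 #2 and none was lower. That was 59.1%, against 7.56% of all genes, and the median log2 difference was 0.40. Their median against scr control was -0.54 with shMPZL3 #1, with 37 called lower, and -0.15 with shMPZL3 #2, with 8 called lower. Of all genes, 15.3% and 5.8% were called lower than scr control with shMPZL3 #1 and shMPZL3 #2. GINS1, a subunit of the replicative helicase, had 535, 475 and 451 normalized counts with shMPZL3 #1, 758, 829 and 728 with shMPZL3 #2 and 719 to 902 with scr control. TK1, the S-phase thymidine kinase, had 6545, 4940 and 4947 against 8905, 7274 and 8300, and the catalytic polymerase subunit POLD1 and the ligase LIG1 had log2 differences of 0.56 and 0.65. The hairpins did not overlap at these genes. The count of 26 was 16 and 11 without shMPZL3 #1 replicates 2 and 3, and 10 and 14 without shMPZL3 #2 replicates 1 and 3.

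Of 63 mitotic kinases, cyclins, kinesins and kinetochore genes 21 were higher (33.3%, against 7.56% of all genes) and none was lower. Their median was 0.34, against medians of -0.71 with shMPZL3 #1 and -0.41 with shMPZL3 #2 relative to scr control. CENPM, of the inner kinetochore, had 480, 316 and 296 normalized counts with shMPZL3 #1, 763, 623 and 622 with shMPZL3 #2 and 652 to 742 with scr control. UBE2C, the ubiquitin-conjugating enzyme of the anaphase-promoting complex, had 2596, 1917 and 1766 against 3554, 3243 and 3041. CCNB1, the mitotic cyclin B1, had 2654, 2150 and 1581 against 3215, 3270 and 2947, and its control libraries, at 4457 to 4570, were above both. MKI67, the proliferation marker Ki-67, overlapped between the hairpins and was not called (adjusted p = 0.124). The mitotic count was 39 without shMPZL3 #1 replicate 1, 9 without shMPZL3 #1 replicate 3 and 11 without shMPZL3 #2 replicate 1. TTTCCCGC, a form of the site bound by E2F factors, was found in 11 of 37 replication gene promoters and in 2.57% of all promoters, 4.21% of those of higher genes and 1.63% of those of lower genes. Another form of the E2F site, TTTGGCGC, was found in 6 of the 37 and in 1.08% of all promoters. It was in 0.971% of those of higher genes and 0.218% of those of lower genes. The counts of 11 and 6 cover replication genes whether called or not and do not bear on the difference between the hairpins. The forms TGANTCA of AP-1 sites and GGAATG of TEAD sites were in 4.54% and 10.8% of all promoters. Their shares were 3.88% and 9.28% among higher genes and 5.88% and 11.9% among lower genes.

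The regulators of the G1 to S transition differed in both directions. Of 28 tested, 10 were higher with shMPZL3 #2 (35.7%) and 2 were lower (7.14%), against 7.56% of all genes in each direction, or 6 higher without shMPZL3 #2 replicate 1. CCND1, cyclin D1, had 3341, 3267 and 2836 normalized counts with shMPZL3 #1, 5395, 5536 and 5521 with shMPZL3 #2 and 6339 to 6482 with scr control, a log2 difference of 0.80 with a standard error of 0.09 (adjusted p = 3.52e-05). CDK6, a kinase partner of cyclin D, had 7355, 10990 and 9927 against 3914, 5015 and 4625. CDKN2B, the p15 inhibitor of that kinase, had 4784, 5573 and 6738 against 2910, 3011 and 2885. CCND1 was thus lower, and CDK6 and CDKN2B higher, with shMPZL3 #1, all without overlap. CDKN1A, the p21 inhibitor, had 1962 ± 338 and 2241 ± 61.3 normalized counts and was not called (adjusted p = 0.343). MYC had 1110, 925 and 999 normalized counts with shMPZL3 #1, 1835, 1772 and 2105 with shMPZL3 #2 and 1278 to 1459 with scr control, which lay between the hairpins. CCND1 overlaps LTO1. Lamin B2 (LMNB2, which overlaps TIMM13) and the chromatin protein HMGA1 had log2 differences of 0.66 and 0.97. Their list of 30 lamin, condensin and chromatin assembly genes had 13 higher (43.3%) and 1 lower (3.33%). It had 7 higher without shMPZL3 #1 replicate 3 and 8 without shMPZL3 #2 replicate 1. Clustered histone genes, whose main transcripts lack a poly-A tail and are thus poorly captured in these libraries, went the other way. Of 33 tested, 9 were lower (27.3%) and none was higher, or 5 lower without shMPZL3 #1 replicate 3. HIST1H2AC had 1142, 1628 and 1917 normalized counts with shMPZL3 #1 and 579, 923 and 726 with shMPZL3 #2, against 403 to 498 with scr control.

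Some immediate early genes and feedback genes of ERK signaling were also higher with shMPZL3 #2. Of 28 AP-1 and immediate early genes 11 were higher (39.3%) and 1 was lower (3.57%), against 7.56% of all genes in each direction. The median log2 difference was 0.48, and 16 were not called. The number higher was 7 without shMPZL3 #1 replicate 3 and 6 without shMPZL3 #2 replicate 3. MAFF, a small MAF factor, had 137, 119 and 115 normalized counts with shMPZL3 #1 and 229, 233 and 365 with shMPZL3 #2. SPRY4, a Sprouty inhibitor of receptor tyrosine kinase signaling, had 117, 109 and 114 against 269, 251 and 168. EGR1, a zinc finger factor induced within minutes by growth factors, had 323, 225 and 278 against 447, 442 and 531, with 355 to 586 in scr control. The hairpins were apart at all 3. FOS and JUN, the AP-1 subunits that give the list its name, were not called, with log2 differences of 1.07 and -0.25 (adjusted p = 0.126 and 0.131). MAFF overlaps PLA2G6.

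Metallothioneins, small cysteine-rich proteins that bind zinc and copper, were among the genes higher with shMPZL3 #2. Of 17 metallothioneins and metal transporters tested, 9 were higher (52.9%) and 1 was lower (5.88%), against 7.56% of all genes in each direction. Without shMPZL3 #1 replicate 3, 6 were higher. MT2A had 3045, 1441 and 1774 normalized counts with shMPZL3 #1, 9055, 8654 and 8624 with shMPZL3 #2 and 3401 to 5395 with scr control, a log2 difference of 2.07 with a standard error of 0.21 (adjusted p = 1.1e-05). MT1E had 668, 425 and 346 against 1454, 1664 and 977, with 1405 to 1557 in scr control. MT1A had 71.4, 66.6 and 39.7 against 192, 181 and 198, with 156 to 210 in scr control. MT2A with shMPZL3 #2 was thus above the control and MT1E and MT1A overlapped it, while with shMPZL3 #1 all 3 genes lay below it. These genes are close copies, and reads may be split among them. ATP7A, the copper exporter, was the lower member, with 363, 539 and 451 normalized counts for shMPZL3 #1 and 167, 214 and 207 for shMPZL3 #2.

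Other stress and metabolic lists were less uniform. Heat shock proteins and chaperonins had 6 of 29 higher (20.7%) and 3 lower (10.3%), against 7.56% of all genes in each direction, with 12 higher without shMPZL3 #1 replicate 1, 3 without shMPZL3 #1 replicate 3 or shMPZL3 #2 replicate 1 and 2 without shMPZL3 #2 replicate 3. HSPD1, the mitochondrial chaperonin, had 11072, 9201 and 7741 normalized counts with shMPZL3 #1 and 15926, 16702 and 15780 with shMPZL3 #2. The small heat shock protein CRYAB, an abundant message, had 59671, 62726 and 81959 against 30294, 26151 and 23064, with 10218 to 21850 in scr control, and HSPB1 had a log2 difference of -0.72. The chaperonin was thus higher and both small heat shock proteins were lower with shMPZL3 #2. Of 43 genes of fatty acid and lipid droplet metabolism 8 were higher (18.6%) and 1 was lower (2.33%), and 4 and 5 were higher without shMPZL3 #1 replicate 3 and shMPZL3 #2 replicate 3. LPL, lipoprotein lipase, had 26.5, 8.94 and 18.9 normalized counts with shMPZL3 #1, 95.2, 85.2 and 93.2 with shMPZL3 #2 and 75.6 to 95.3 with scr control. FABP5, a fatty acid carrier, had a log2 difference of 1.03. Among cholesterol genes MYLIP, which targets the LDL receptor for breakdown, was lower at -0.98.

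Genes of TGF-beta, activin and BMP signaling had the largest share lower with shMPZL3 #2 among lists with 15 or more members tested. In this pathway ligands bind paired kinase receptors that phosphorylate SMAD proteins, BMP ligands induce the ID genes, and SMAD6 and SMAD7 feed back. Of 39 tested, 17 were lower (43.6%) and 5 were higher (12.8%), against 7.56% of all genes in each direction. The median log2 difference was -0.26. Without shMPZL3 #2 replicate 3 the counts were 11 and 3. Among the BMP targets ID3 had 3120, 2942 and 3990 normalized counts with shMPZL3 #1, 1183, 1096 and 1414 with shMPZL3 #2 and 1437 to 1690 with scr control, a log2 difference of -1.44 with a standard error of 0.13 (adjusted p = 3.48e-06). ID2 had 440, 470 and 429 against 151, 162 and 171, with 305 to 533 in scr control. ID1 had 9385, 7548 and 8556 against 6016, 5996 and 6326, with 8799 to 9411 in scr control. The ID genes, inhibitors of helix-loop-helix factors, were thus lower with shMPZL3 #2 without overlap, ID4 among them at -0.86. For ID1 and ID2 it was shMPZL3 #2 that was called against scr control, and for ID3 and ID4 shMPZL3 #1.

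Ligands and receptors of the pathway went both ways. The BMP antagonist GREM1 and the ligands BMP4 and TGFB1 were higher, with log2 differences of 2.95, 1.49 and 1.03, and TGFB3 was lower at -1.16. BMP4 had 25.6, 10.9 and 17.0 normalized counts with shMPZL3 #1 and 48.6, 41.6 and 60.9 with shMPZL3 #2, and its call was lost without shMPZL3 #2 replicate 3 (adjusted p = 0.0691). TGFB2 had 446 ± 89.5 and 423 ± 51.9 normalized counts (adjusted p = 0.815). The receptor ACVR1, which carries BMP signals, had 523 ± 39.6 normalized counts with shMPZL3 #1 and 319 ± 28.6 with shMPZL3 #2, and SMAD3, the effector of TGF-beta and activin, had 1825, 1758 and 2021 against 2772, 2808 and 3141. Neither gene overlapped between the hairpins. TGFB1 shares its position with HNRNPUL1, which had far more counts, and TGFB3 with IFT43.

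Smooth muscle and contractile genes were mostly lower with shMPZL3 #2 where they differed. Of 30 tested, 11 were lower (36.7%) and 2 were higher (6.67%), against 7.56% of all genes in each direction. Without shMPZL3 #1 replicate 3, 6 were lower. The median against scr control was 0.53 with shMPZL3 #1 and 0.17 with shMPZL3 #2. ACTA2, smooth muscle actin, had 2185, 2591 and 3190 normalized counts with shMPZL3 #1, 443, 540 and 410 with shMPZL3 #2 and 141, 307 and 408 with scr control, a log2 difference of -2.52 with a standard error of 0.23 (adjusted p = 4.9e-06). ACTG2, the gamma form, had 274, 271 and 245 against 104, 100 and 84.2. MYLK, the kinase of the myosin light chain, had 2190, 2505 and 2873 against 1343, 1343 and 1208. The filamin FLNC and the actin-binding protein LMOD1 had log2 differences of -1.24 and -0.84, without overlap. TPM3, a tropomyosin found in most cells, was higher at 0.50, and MYL6, the most abundant light chain of the list, was not called (adjusted p = 0.935). ACTA2 overlaps FAS, with a sum of 3324 counts in the 6 libraries beside 9883 of ACTA2. Of the 6 fibroblast and mesothelial markers tested, 3 were also lower and 1 was higher, with summed levels of 139 to 165 CPM for shMPZL3 #1 and 151 to 214 for shMPZL3 #2, and their part in this result was not tested.

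Mesenchymal genes split between the hairpins. Of 23 tested, 6 were higher with shMPZL3 #2 (26.1%) and 3 were lower (13%), against 7.56% of all genes in each direction, and the median was 0.09. FN1, fibronectin, had 1813, 3415 and 4599 normalized counts with shMPZL3 #1, 5995, 9958 and 11196 with shMPZL3 #2 and 665 to 1086 with scr control, a log2 difference of 1.47 with a standard error of 0.26 (adjusted p = 0.00135). LOXL2 and LOX, which cross-link collagen, had log2 differences of 1.08 and 0.77, and LOXL2 overlaps ENTPD4, which had more counts. VIM, the intermediate filament of mesenchymal cells, had 3608, 5533 and 5240 against 2340, 3066 and 2535, with 872 to 1497 in scr control. S100A4, a calcium-binding protein of motile cells, had 1856, 1942 and 2767 against 804, 850 and 1004, with 1060 to 1236 in scr control. FN1 was therefore above the control with both hairpins and more so with shMPZL3 #2, and VIM was above it with both and more so with shMPZL3 #1, while S100A4 was above it with shMPZL3 #1 alone. The fibroblast and mesothelial markers COL1A1, COL1A2 and LRRN4 had the same direction as VIM, and their part in the VIM value was not tested. Of the 13 EMT regulators tested, SNAI1, the Snail repressor, was lower, with 288, 272 and 367 normalized counts for shMPZL3 #1 and 202, 155 and 141 for shMPZL3 #2, KLF8 was lower at -0.84, and KLF5 and the epithelial splicing regulator ESRP2 were higher at 0.59 and 0.43. The call of ESRP2 was lost without shMPZL3 #2 replicate 1 or 3 (adjusted p = 0.0502 and 0.121).

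Matrix genes differed in both directions. Of 27 genes of collagen chains and their modifiers 6 were lower with shMPZL3 #2, namely COL1A1 at -0.75, COL1A2 at -1.24, COL5A2 at -1.04, COL6A1 at -0.79, COL6A2 at -0.79 and COL8A1 at -0.75 on the log2 scale. COL1A1 had 619, 572 and 874 normalized counts with shMPZL3 #1, 411, 331 and 486 with shMPZL3 #2 and 238 to 297 with scr control. The basement membrane collagens COL4A1 and COL4A2, which lie head to head and overlap at their starts, were higher at 0.56 and 0.62, with 20305 to 24731 and 30972 to 36717 normalized counts of COL4A1 for shMPZL3 #1 and shMPZL3 #2. NID1 and NID2, which link laminin to type IV collagen, were higher too, at 1.38 and 1.54, and so was the laminin chain LAMA3 at 0.76, with 26811, 29427 and 28396 against 40508, 50192 and 52570 normalized counts. Other genes of the laminin and basement membrane list were lower, namely FBLN5 at -0.92, LAMA1 at -0.57, LAMA5 at -0.55, LAMB3 at -0.55 and LAMB2 at -0.39. In all, 6 of 27 collagen genes were higher and 6 lower (22.2% each), and 4 of 33 laminin and basement membrane genes were higher (12.1%) and 5 lower (15.2%), against 7.56% of all genes in each direction. The calls of LAMB2 and LAMB3 were both lost without shMPZL3 #1 replicate 3 or shMPZL3 #2 replicate 2, which left 3 lower, and that of LAMB3 also without shMPZL3 #2 replicate 1 and that of LAMB2 without shMPZL3 #2 replicate 3. COL1A1 and COL1A2 are also on the list of fibroblast and mesothelial markers, of which 3 of 6 were lower, and the part of such cells in the collagen values was not tested. NID2 overlaps RTRAF.

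Matrix receptors and inhibitors of matrix proteases showed the same lack of a single direction. ITGB8, an integrin subunit that activates latent TGF-beta, had 5043, 5266 and 4016 normalized counts with shMPZL3 #1 and 8072, 9935 and 8786 with shMPZL3 #2. ITGB6, the epithelial subunit with the same ligand, had 7716, 12268 and 9203 against 4117, 5842 and 4673, and their partner ITGAV 15745, 22102 and 16825 against 8784, 11523 and 9264. The order of the hairpins was thus opposite at ITGB8 and at ITGB6. Of the inhibitors of metalloproteases, TIMP2 had 8956, 9637 and 10420 normalized counts with shMPZL3 #1, 4137, 4147 and 4383 with shMPZL3 #2 and 6034 to 6565 with scr control, a log2 difference of -1.20 with a standard error of 0.09 (adjusted p = 9.89e-07). TIMP3 was lower at -0.92 and TIMP1 higher at 0.77. Among 18 integrin subunits 2 were higher (11.1%) and 4 lower (22.2%), and among 26 proteases and inhibitors 4 were higher (15.4%) and 3 lower (11.5%), against 7.56% of all genes in each direction.

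**Figure D3:**
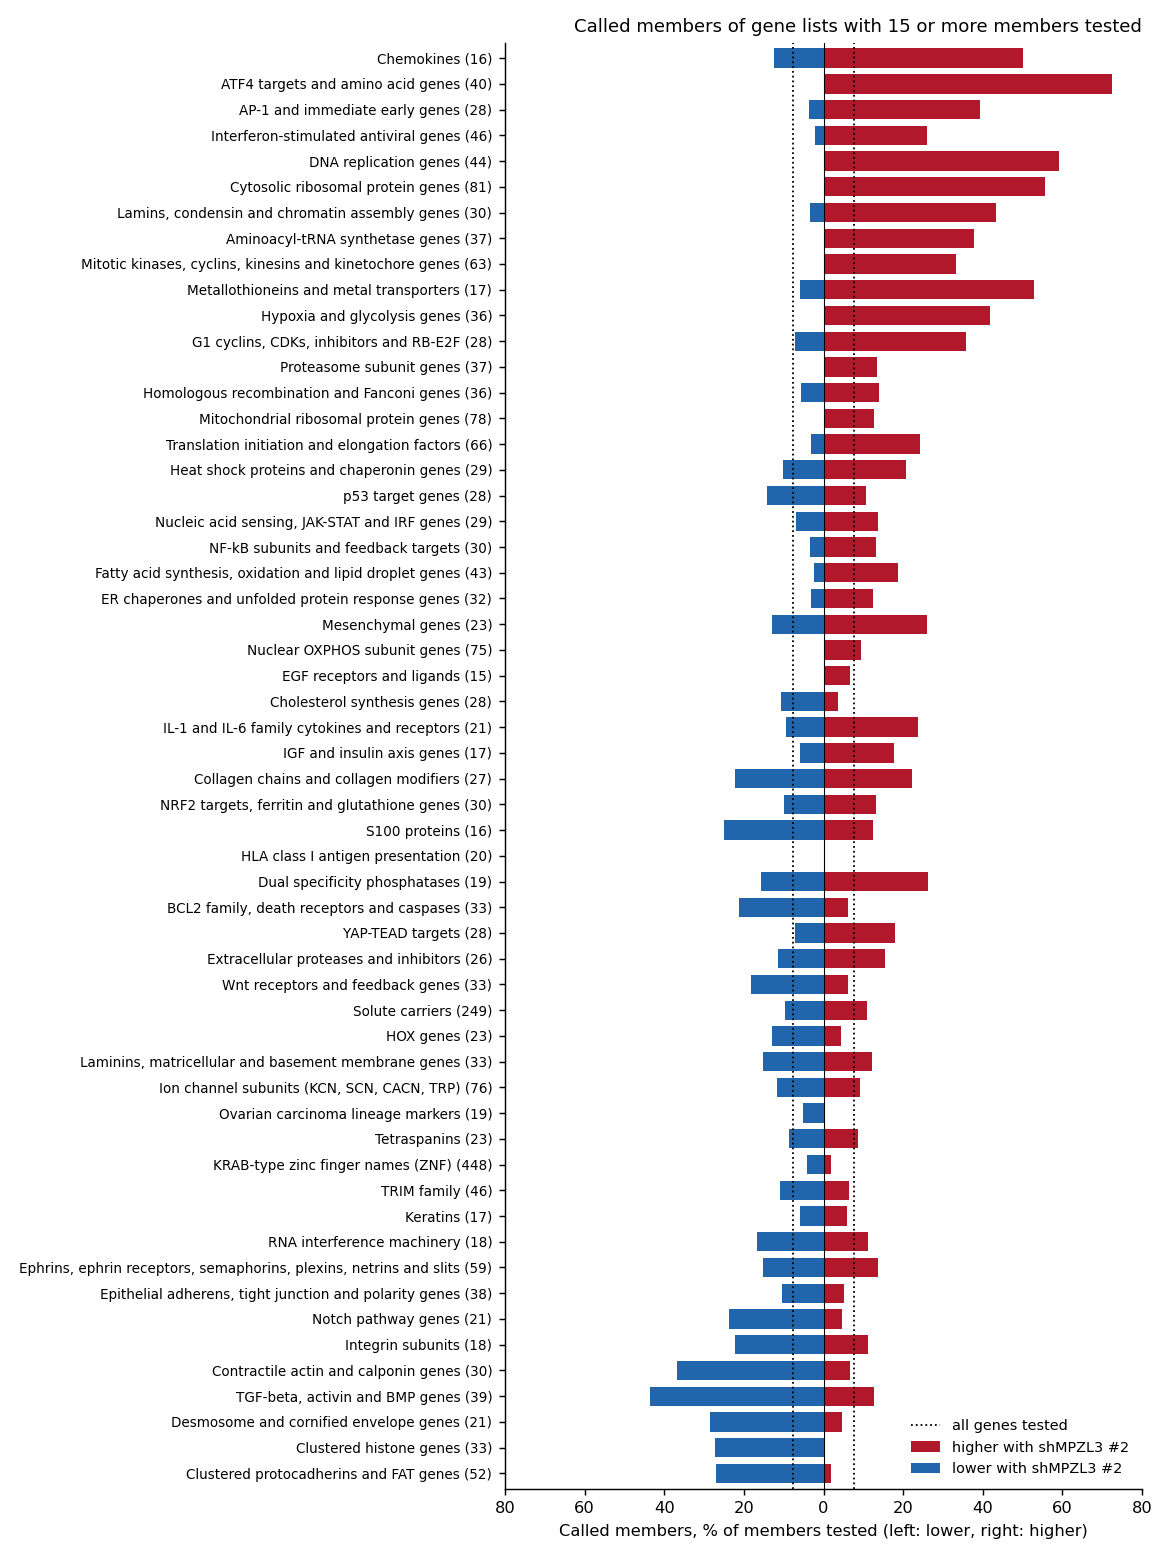
Bars give the share of tested members called higher (red, to the right) or lower (blue, to the left) with shMPZL3 #2 for gene lists with 15 or more members tested (number in parentheses), ordered by median log2 difference, and dotted lines mark the 7.56% of all genes tested in each direction. The ATF4 list reaches 72.5% higher and the TGF-beta list 43.6% lower.

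Protocadherin and desmosome genes were mostly lower with shMPZL3 #2 where they differed. Protocadherins are cadherin-like surface proteins encoded in 3 neighboring clusters on chromosome 5. Of 52 clustered protocadherin and FAT genes 14 were lower (26.9%) and 1 was higher (1.92%), against 7.56% of all genes in each direction. The median log2 difference was -0.41. The count was 7 without shMPZL3 #1 replicate 3 and 9 without shMPZL3 #1 replicate 2 or shMPZL3 #2 replicate 1. The beta cluster held 8 of the 14 among 13 genes tested, with a median of -0.80. The difference did not extend to all clusters, since of 10 genes named PCDHGA 1 was lower, with a median of -0.03. PCDHB6 had 64.1, 82.5 and 76.6 normalized counts with shMPZL3 #1, 13.2, 23.3 and 24.1 with shMPZL3 #2 and 26.1 to 30.2 with scr control. CELSR3, a seven-pass cadherin of planar polarity and the higher member, had 43.0, 57.6 and 61.5 against 155, 172 and 204, with 100 to 104 in scr control. With correction for gene length, 14 were lower. Desmosome and cornified envelope genes had 6 of 21 lower (28.6%) and 1 higher (4.76%), and 3 lower without shMPZL3 #1 replicate 3 or shMPZL3 #2 replicate 1. DSC2, a desmosomal cadherin, had 3065, 4611 and 4952 normalized counts with shMPZL3 #1 and 1606, 2207 and 2046 with shMPZL3 #2, and the linker DSP had a log2 difference of -0.43. CDH1, E-cadherin, had 6976 ± 274 and 5985 ± 339 normalized counts and was not called (adjusted p = 0.112). Of 38 adherens and tight junction genes 4 were called lower (10.5%) and 2 higher (5.26%), near the background. Without regard to the test, shMPZL3 #2 lay below shMPZL3 #1 without overlap at 14 of the 38 and above at 4. The shares over all genes were 14.6% and 15.4%, and the median log2 difference of the 38 was -0.14.

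Other surface adhesion genes with immunoglobulin-type domains differed gene by gene. MPZL2 had 2360 ± 309 and 2338 ± 427 normalized counts with shMPZL3 #1 and shMPZL3 #2, and MPZL1 had 3029 ± 142 and 2588 ± 106, and neither was called (SD, n = 3 each, adjusted p = 0.961 and 0.112). NCAM1, the neural cell adhesion molecule, had 3671, 3622 and 3157 normalized counts with shMPZL3 #1, 5599, 5658 and 5566 with shMPZL3 #2 and 5610 to 6104 with scr control. CEACAM1, an adhesion receptor of epithelium and leukocytes, had 328, 480 and 606 against 196, 238 and 142, with 54.5 to 77.0 in scr control. NCAM1 was therefore near the control with shMPZL3 #2, and CEACAM1 was above it with both hairpins.

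Notch, Wnt and axon guidance genes also differed member by member. HEY1, a direct Notch target, had 109, 107 and 65.3 normalized counts with shMPZL3 #1 and 33.4, 30.4 and 21.8 with shMPZL3 #2. The ligand JAG1 had 8049, 9384 and 9374 against 6179, 5617 and 5752, and the receptor NOTCH3 had a log2 difference of -0.55. The ligand, the receptor and the target thus all lay lower without overlap, and 5 of 21 Notch genes were lower (23.8%, against 7.56% of all genes in each direction) and 1 higher (4.76%), with 8 lower without shMPZL3 #1 replicate 1 and 3 without shMPZL3 #1 replicate 3 or shMPZL3 #2 replicate 3. Of 33 Wnt genes 6 were lower (18.2%) and 2 higher (6.06%), and 2 or 3 were lower without any 1 of 4 libraries, shMPZL3 #1 replicates 1 and 3 and shMPZL3 #2 replicates 2 and 3. NKD1, a feedback inhibitor, had 198, 324 and 276 normalized counts with shMPZL3 #1 and 106, 115 and 108 with shMPZL3 #2, and the secreted antagonist SFRP1 had 158, 116 and 121 against 324, 248 and 248. Ephrins, semaphorins and slits had 8 of 59 higher (13.6%) and 9 lower (15.3%), or 5 higher without shMPZL3 #2 replicate 3 and 5 lower without shMPZL3 #1 replicate 3. SLIT3, a ligand of ROBO receptors, had 2741, 2406 and 2518 normalized counts with shMPZL3 #1, 1142, 1009 and 1342 with shMPZL3 #2 and 1890 to 2197 with scr control, a log2 difference of -1.13 with a standard error of 0.11 (adjusted p = 1.03e-05).

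Of 33 genes of the BCL2 family, death receptors and caspases 7 were lower (21.2%) and 2 higher (6.06%), against 7.56% of all genes in each direction, or 4 lower without shMPZL3 #2 replicate 1. TNFSF10, the death ligand TRAIL, had 607, 1060 and 1163 normalized counts with shMPZL3 #1 and 386, 576 and 461 with shMPZL3 #2. CASP1, the inflammatory caspase, had 149, 222 and 233 against 89.1, 114 and 71.4, and BMF, a BH3-only killer protein, 252, 313 and 413 against 138, 138 and 172. The shMPZL3 #1 libraries were the higher ones at all 3 genes.

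Of 18 genes of the machinery that processes hairpins, 2 were higher (11.1%) and 3 lower (16.7%) beside a background of 7.56% in each direction, or 0 and 1 without shMPZL3 #2 replicate 3. AGO4, an Argonaute without slicer activity, had 698, 965 and 905 normalized counts with shMPZL3 #1, 425, 496 and 495 with shMPZL3 #2 and 444 to 502 with scr control, a log2 difference of -0.86 with a standard error of 0.13 (adjusted p = 0.000381). AGO2, the slicer, had 4002 ± 300 and 3652 ± 126 normalized counts, and DICER1 had 1917 ± 265 and 1696 ± 93.9 (SD, n = 3 each), and neither was called (adjusted p = 0.363 and 0.283). XPO5, which exports hairpins from the nucleus, was higher at 0.38, and its call was lost without shMPZL3 #2 replicate 3 (adjusted p = 0.0517).

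Of the 65 lists counted, 26 had a share higher with shMPZL3 #2 of at least 2 times the background of 7.56%, 20 had such a share lower, 5 of them both, and 24 had neither. Zinc finger genes named ZNF were the largest of the last group, with 8 of 448 higher (1.79%) and 19 lower (4.24%). The 19 became 37 without shMPZL3 #1 replicate 1, 12 without shMPZL3 #1 replicate 2, 6 without shMPZL3 #1 replicate 3 and 7 without shMPZL3 #2 replicate 3, and the 8 became 3 or 4 without shMPZL3 #1 replicate 2 or 3 or shMPZL3 #2 replicate 1 or 3. Annexins and HLA class I genes had no member called. When protein-coding genes were grouped by the stem of their symbol instead, 184 stems had at least 10 genes tested. Of these stems, 23 reached 2 times the 8.86% of protein-coding genes that were higher, and 27 reached 2 times the 8.64% that were lower. The MCM stem had 7 of 10 higher, the CXCL stem 7 of 10, the EXOSC stem of RNA exosome subunits 4 of 10 and the NUP stem of nucleoporins 6 of 21. NUP210, a membrane protein of the nuclear pore, had 2328, 2024 and 1797 normalized counts with shMPZL3 #1 and 3930, 3237 and 3964 with shMPZL3 #2.

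Within the groups, the libraries of shMPZL3 #1 were less alike than those of shMPZL3 #2 in several lists. For mitotic genes the median level relative to each gene's mean over 9 libraries was -0.13, -0.33 and -0.66 in the 3 shMPZL3 #1 libraries and -0.02, 0.08 and -0.09 in the 3 shMPZL3 #2 libraries. For interferon-stimulated genes it was -0.09, 0.35 and 0.85 against 0.58, 1.00 and 0.95, so the lists overlapped in level there. For ATF4 targets it was -0.20, -0.36 and -0.25 against 0.34, 0.31 and 0.48, and for chemokines -0.28, -0.20 and -0.02 against 1.09, 1.52 and 1.22, which did not overlap.

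**Figure D4:**
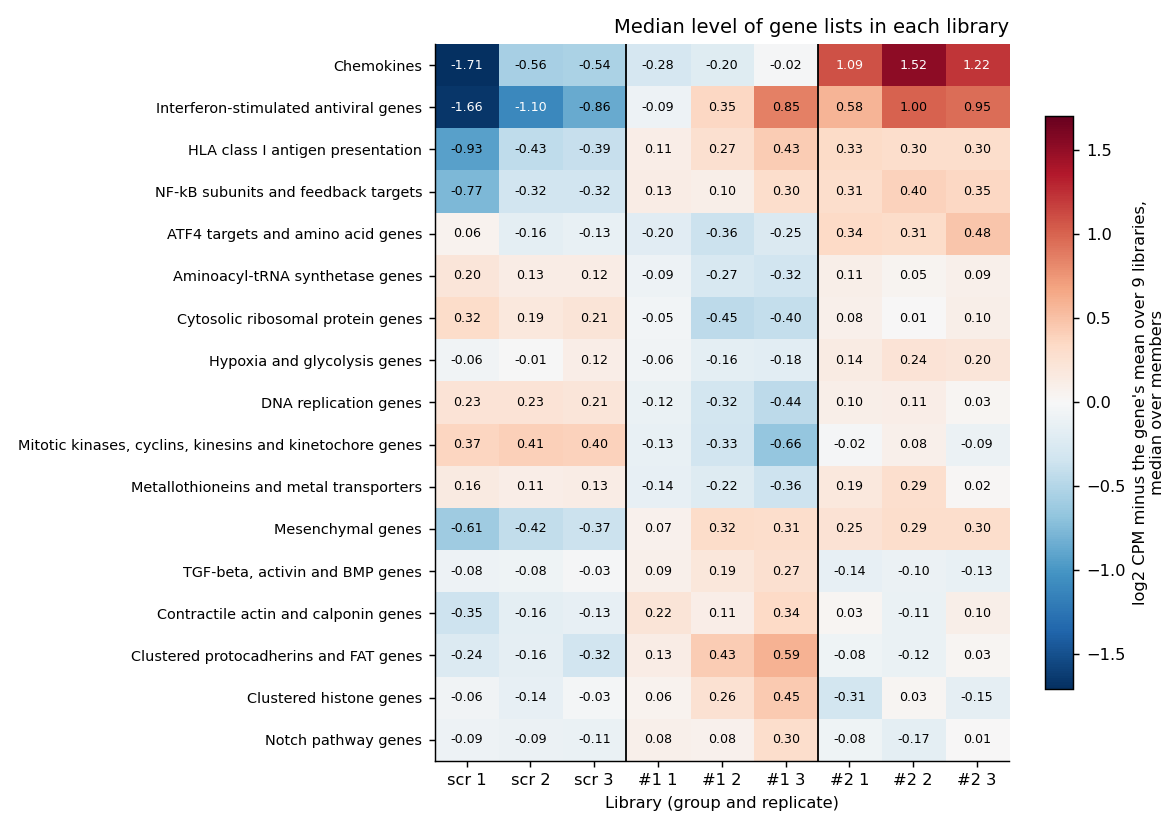
Each cell gives, for 1 list in 1 library, the median over members of the log2 CPM minus the gene's mean over the 9 libraries, and red stands for high and blue for low. In the chemokine row the 3 shMPZL3 #2 libraries read 1.09 to 1.52 and the 3 shMPZL3 #1 libraries -0.28 to -0.02, while the HLA class I row has overlapping values for the hairpins.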

How the data were processed

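Messenger RNA of 9 OVCAR4 libraries, 3 biological replicates for each of scr control, shMPZL3 #1 and shMPZL3 #2, was sequenced from non-directional, poly-A selected libraries. The authors deposited the raw count of reads on every gene for each replicate separately. The submitters' processing notes name HISAT2 2.0.5, featureCounts 1.5.0-p3 and hg38. All 58735 genes matched GENCODE release 29 in identifier, position and name. Libraries were grouped by their labels.

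The deposited counts were fitted in edgeR 4.0.16 (R 4.3.3, limma 3.58.1) with all 3 groups, which share one estimate of the spread, TMM scaling and the filterByExpr filter, and shMPZL3 #2 was compared with shMPZL3 #1 by two-sided quasi-likelihood tests with Benjamini-Hochberg adjustment over 16928 genes. Adjusted p-values in the text come from this fit unless another setting is named. Standard errors were derived from the F statistic. Normalized counts put every library on the average of the effective library sizes, and log2 CPM used a prior count of 2. Gene lists and symbol stems were counted, with no set test. At these depths a count of 3 or fewer was treated as the floor. Python 3.11.15 with pandas 2.3.3 was used for summaries.

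On simulated counts for shMPZL3 #2 against shMPZL3 #1 over 16928 genes, 32 of 66 genes simulated at 1.5-fold, 44 of 67 at 2-fold and 60 of 67 at 4-fold were recovered, and 13 of 16728 unchanged genes were called. Far fewer genes were changed there than were called in the data, and each gene had the same dispersion in all groups. These rates therefore check the procedure and do not give its power or error rate in the data.

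Named genes were MPZL3, the 15 largest positive and 15 largest negative protein-coding genes called without overlap at a mean log2 CPM of 1 or more, per list up to 6 called members and the 3 with the highest level, lineage markers, and called members of symbol stems. Of 176 genes given with values, 35 fall outside this rule and were chosen after their values were seen, among them CXCL2, CCL2, CXCL10, IFI6, DDIT3, VIM, SMAD3, ID4, FOS, JUN and MPZL2. The contrast and the lists were chosen with earlier results of these data known. The authors' gene length column was used only for the length trend and its correction. Alternatives were DESeq2 1.42.0, RLE and upper-quartile scaling, other filters, protein-coding genes only, the 6 knockdown libraries alone, a replicate block, thinning, leaving out each library and, chosen after seeing the data, a length correction. The hairpins' target sequences and their positions were not analysed here, and some genes and 2 gene lists are not reported here.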

Additional observations from a re-analysis of the deposited data

How the results depend on the processing

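The direction and call of MPZL3 held under all 19 alternatives, with a log2 difference of 1.12 to 1.36 with each library left out. Leaving out 1 library in turn gave 667 to 1521 genes higher with shMPZL3 #2 and 798 to 1432 lower, and 152 to 246 at least 2-fold higher and 193 to 424 at least 2-fold lower. The lowest were 667 higher without shMPZL3 #2 replicate 3, 798 lower and 193 at least 2-fold lower without shMPZL3 #1 replicate 3, and 741 and 786 were higher without shMPZL3 #2 replicate 1 and shMPZL3 #1 replicate 3, while 802 were lower without shMPZL3 #2 replicate 3. The cause was not tested. With the replicate number as a block, 2015 genes were higher and 1808 lower. The correlation of deviations between same-numbered libraries of the hairpins was 0.137, 0.218 and 0.0966, so the numbers were not taken to pair the samples, although each shMPZL3 #1 library correlated best with its own number, a hint from the data and not from the design. DESeq2 called 1485 higher and 1508 lower, and the 6 knockdown libraries alone 863 and 1039. Upper-quartile scaling gave 1153 and 1461.

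Of 156 called genes given with values, 148 were called under every alternative that gave a value, and the other 8 were BOLA2B, BMP4, CCL28, ESRP2, LAMB2, LAMB3, UPK3B and XPO5. These genes were named largely for being called with large differences, so this count does not describe all 2559 called genes. Of the genes not called, NFKB1 was called in 4 alternatives, namely the block, DESeq2, the length correction and without shMPZL3 #2 replicate 2, NFKBIA with the block, MKI67 with the block and without shMPZL3 #1 replicate 1, and IFI6 with the block, with no filter and without shMPZL3 #1 replicate 3. Signs turned only at genes that were not called. The log2 difference of DDIT3 was -0.013 with upper-quartile scaling, -0.0012 with at least 10 counts in each knockdown library, -0.0014 with protein-coding genes only and -0.024 with the length correction, and -0.050 to -0.0045 in the fits without 1 library that turned it. With each library left out, the log2 difference of RPLP0 ranged from -0.077 to 0.12, the log2 difference of TGFB2 from -0.24 to 0.024, the log2 difference of MPZL2 from -0.17 to 0.099, the log2 difference of MYL6 from -0.095 to 0.065, the log2 difference of IL1A from -0.54 to 0.025 and the log2 difference of IL1B from -0.68 to 0.022.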
